A study of Mus musculus with 3 samples.

Results

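The nuclear genes for the subunits of the mitochondrial respiratory chain were followed in mandibular condyles of mice with both, 1 or no intact copies of Dspp, the gene of dentin sialophosphoprotein, an extracellular matrix protein of dentin, bone and condylar cartilage. Members were chosen by symbol alone, as rows of the expression table named Nduf (followed by a, b, c, s or v and a number), Sdha to Sdhd, Uqcr, Cox4 to Cox8 or Atp5. After 9 symbols with the ending -ps (pseudogenes) were left out, 88 of 26970 genes matched, 39 of complex I, 4 of complex II, 8 of complex III, 20 of complex IV and 17 of complex V. Ndufa4 and its paralog Ndufa4l2 were counted with complex IV. Cox7a2l, which takes part in joining complexes III and IV into larger assemblies, matched by its name although it is not a regular subunit. All other names are those of subunits, of their tissue-restricted isoforms or of gene copies. Whether gene copies such as Ndufb4c encode a working subunit was not tested, so for them the description as nuclear-encoded subunits rests on the name.

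The 3 libraries came from condyles of 4-month-old mice, 1 each from wild type (WT, labelled +/+), heterozygous Dspp knockout (Dspp+/-) and homozygous Dspp knockout (Dspp-/-). The knockout is present in the whole animal, and no treatment was given. Per the study, WT and Dspp+/- were each pools of 3 animals, and the number behind Dspp-/- is not given. With 1 library per genotype there was no replicate and no test was possible, so each difference given here is one between single libraries, and the spread between mice is unknown.

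The respiratory chain sits in the inner mitochondrial membrane. Complexes I and II pass electrons from NADH and succinate to ubiquinone, complex III passes them on to cytochrome c, complex IV passes them to oxygen, and complex V (ATP synthase) uses the proton gradient that builds up to make ATP. Most subunits are encoded in the nucleus and a few in the mitochondrial genome, complex II being wholly nuclear. Skeletal muscle has many mitochondria and uses its own isoforms of 3 small complex IV subunits, Cox6a2, Cox7a1 and Cox8b, in place of the widespread Cox6a1, Cox7a2 and Cox8a, whereas cartilage is known for relying largely on glycolysis.

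Promoter windows were read from RefSeq (GRCm38.p6, from 250 bases before to 50 bases after each annotated start), which held a window for 70 of the 88 members. They were searched on both strands for sites of factors known to act on respiratory genes. The site of NRF1 (nuclear respiratory factor 1) was in the windows of 5 of 70 members (7.14%) against 1.07% of all 27025 genes with a window, and the YY1 site AAGATGGCG was in 7 (10%) against 1.64%. The ETS/GABP site CCGGAAGT was in 5 (7.14%) against 4.31%, the ERR site AAGGTCA in 8 (11.4%) against 5.38%, and the E-box CANNTG, the target of muscle-determining factors and of many others, in 49 (70.0%) against 75.0%. Stretches around the NRF1 site in the 5 members that had it are shown. They are written 5′ to 3′ on the strand of the gene, with the site in capitals. The site began 42 bases before the start in Atp5g2, 50 in Atp5k, 162 in Cox6a1 and 60 in Ndufa11, and 30 bases after it in Uqcrc1.
Atp5g2 (chr15:102671070-102671099, minus strand): ggctccggccGCGCATGCGCagagccttcc
Atp5k (chr5:108434430-108434459, minus strand): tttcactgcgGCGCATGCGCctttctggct
Cox6a1 (chr5:115349101-115349130, minus strand): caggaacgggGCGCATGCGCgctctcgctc
Ndufa11 (chr17:56717692-56717721, plus strand): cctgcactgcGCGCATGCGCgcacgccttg
Uqcrc1 (chr9:108936668-108936697, plus strand): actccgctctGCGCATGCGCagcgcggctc

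For the muscle isoform Cox8b and its widespread partner Cox8a, 180 bases around the start (150 before and 30 after) are shown, because the levels of these 2 genes moved apart in the libraries. Capitals mark E-boxes in Cox8b, which began 19 bases before and 16 bases after the start, and the ETS/GABP site in Cox8a, read on the other strand, which began 6 bases before the start. Cox8a also has an E-box, not in capitals, that begins 102 bases before the start, and another ETS/GABP site that begins 31 bases after it, past the end of the stretch.
Cox8b (GRCm38.p6, chr7:140900417-140900596, minus strand): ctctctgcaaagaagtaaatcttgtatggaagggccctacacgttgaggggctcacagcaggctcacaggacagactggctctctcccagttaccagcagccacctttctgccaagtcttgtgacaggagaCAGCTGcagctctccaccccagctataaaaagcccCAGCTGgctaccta
Cox8a (GRCm38.p6, chr19:7217587-7217766, minus strand): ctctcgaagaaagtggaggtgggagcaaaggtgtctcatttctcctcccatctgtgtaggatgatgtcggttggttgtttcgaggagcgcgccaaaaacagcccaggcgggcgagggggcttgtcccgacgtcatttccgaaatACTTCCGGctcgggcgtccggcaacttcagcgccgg
A match describes these letters in this window and does not show that a factor binds there. Of the 70 members, 68 were compared between libraries. In Dspp+/- against WT the 5 with the NRF1 site had a median log2 ratio of 0.38, and the 63 without it one of 0.37. The medians with and without the site were 0.24 and 0.38 for ETS/GABP, 0.41 and 0.37 for YY1, 0.33 and 0.38 for ERR, and 0.35 and 0.39 for the E-box.

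Levels are given as FPKM, fragments scaled to gene length and to library size, which was the reading of the deposited values that their steps bore out. The whole fragments behind the values gave a depth of 20241575 in WT against 23613621 in Dspp+/- and 22253158 in Dspp-/-. Genes of the mitochondrial genome made up 25.0% of all FPKM in WT against 36.9% in Dspp+/- and 37.3% in Dspp-/-, and FPKM does not adjust for such a difference in composition. Xist, the RNA of X inactivation in females, had 2 fragments in WT against 12084 in Dspp+/- and 10563 in Dspp-/-, so the libraries differed in the sex of the pooled animals, and effects of sex and genotype cannot be told apart. Chondrocyte markers summed to 1284 FPKM in WT against 177 in Dspp+/- and 565 in Dspp-/-, and osteoblast markers to 15944, 4397 and 8844 FPKM. The tissue label was thus borne out by cartilage and bone genes, but skeletal muscle markers summed to 15315, 20322 and 16189 FPKM, near the osteoblast sum in WT and above it in both mutant libraries, led by Acta1 (skeletal actin) at 5609 FPKM in WT. In bulk tissue, fewer cells of a type and less RNA per cell cannot be told apart.

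The summed level of the 88 members was 6089 FPKM in WT against 7839 in Dspp+/- and 6245 in Dspp-/-. This was 1.29 times the WT sum in Dspp+/- and 1.03 times in Dspp-/-, while the FPKM of all genes summed to 1.17 and 1.13 times WT. Ranked by library, Dspp+/- was highest for each of the 5 complexes. Complex I summed to 1674 FPKM in WT against 2087 in Dspp+/- and 1634 in Dspp-/-, and complex II to 330.0, 473 and 361. Complex III summed to 772, 1015 and 820.1 FPKM, complex IV to 1777, 2124 and 1733, and complex V to 1535, 2140 and 1696. The highest ratio of such a sum to WT was that of complex II in Dspp+/-, 1.43 times, and the sums of complexes I and IV were 0.976 times the WT sums in Dspp-/-. As a share of the FPKM of all genes, the members made up 1.97% in WT against 2.18% in Dspp+/- and 1.79% in Dspp-/-. Without the mitochondrially encoded genes in the total the shares were 2.63%, 3.45% and 2.85%, so that the order of WT and Dspp-/- turned.

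**Figure D1:**
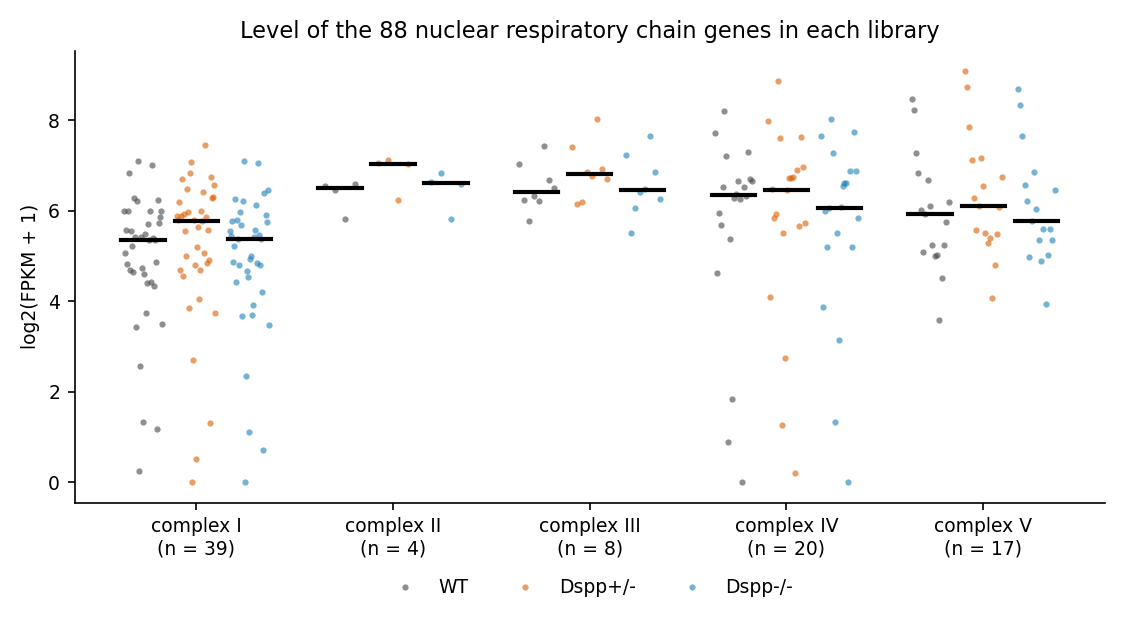
Level of each of the 88 members as log2(FPKM + 1), by complex and library, with 1 point per gene and a bar at the median. The points of the Dspp+/- library sit highest by median in each complex, and the few points near 0 are gene copies and isoforms with under 50 fragments.

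Of the 88 members, 86 averaged 1 FPKM or more across the libraries and were compared as log2 ratios of FPKM + 1, beside 13026 genes of the whole table. The other 2 were Cox7b2, a testis isoform, with 0, 2 and 0 fragments in the order WT, Dspp+/-, Dspp-/-, and Ndufb11b with 4, 0 and 0 fragments. In Dspp+/- against WT, 74 of the 86 members were higher and their median log2 ratio was 0.36, beside a median of 0.06 over all genes compared, of which 56.3% were higher. In Dspp-/- against WT, 48 members were higher with a median of 0.07, beside 0.01 over all genes, of which 50.7% were higher. These comparisons share the WT library. Set directly against Dspp-/-, Dspp+/- had 74 members higher and a median of 0.31, beside 0.04 over all genes, of which 55.3% were higher. The members as a group were thus higher in the Dspp+/- library than in both others, whereas in Dspp-/- about as many were higher as lower.

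The single changes were small by log2 ratio of FPKM + 1, on which counts of members past a fold and rankings of members by change rest. This ratio understates changes of low genes, whereas folds given for single genes come from fragments. By fragments, the gene copies Cox6c2 (2.21 times WT) and Ndufb4c (0.286 times WT) were past 2-fold in Dspp+/-, both on few fragments. In Dspp+/- against WT, no member was at least 2-fold higher, against 4.88% of all genes, and none was at least 2-fold lower, against 2.86%. In Dspp-/- against WT, 1 member (Cox6c2) was at least 2-fold higher, against 4.05% of all genes, and 1 (Cox8a) was at least 2-fold lower, against 1.37%. Between the mutants, 1 member (Ndufb3) was at least 2-fold higher in Dspp+/-, against 0.798%, and none was at least 2-fold lower, against 0.852%. At 1.5-fold, 10 members were higher in Dspp+/- than in WT (11.5% of all genes were) and 3, namely Ndufb4c, Cox8a and Ndufa4l2, were lower (8.95% of all genes). In Dspp-/- against WT these numbers were 2 higher, Cox6c2 and Atp5k (8.84% of all genes), and 7 lower (8.21%), and in Dspp+/- against Dspp-/- they were 10 higher (4.32%) and 1 lower, Ndufb4c (3.39%). In Dspp+/- against WT, the count of members at least 1.5-fold higher was therefore close to the background and that of members lower was below it, and most of the 74 higher members differed from WT by less than 1.5-fold. Against Dspp-/-, the count of higher members was above the background.

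**Figure D2:**
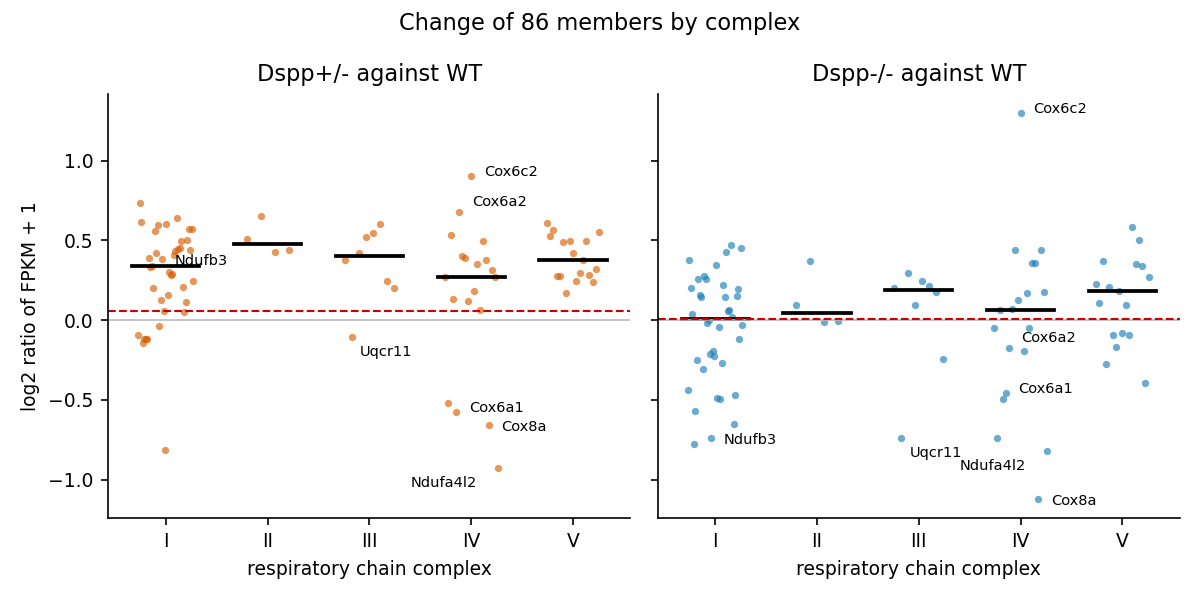
Log2 ratio of FPKM + 1 against WT for the 86 members compared, by complex, with Dspp+/- on the left and Dspp-/- on the right. Each point is 1 gene, black bars are medians by complex and the dashed red line is the median of all 13026 genes. Complex V has no point below 0 in Dspp+/-, while complex I is centred on 0.01 in Dspp-/-.

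Complex I had 38 members compared. In Dspp+/- against WT, 31 of these were higher, with a median log2 ratio of 0.34, and in Dspp-/- 19 were higher and 19 lower, with a median of 0.01. Within the complex, the 7 core subunits, which carry the flavin and iron-sulfur clusters and are shared with bacteria, had higher medians than the 31 accessory subunits. All 7 core genes were higher in Dspp+/-, with a median of 0.50, and 24 of the 31 others were, with a median of 0.28. In Dspp-/- the core median was 0.15, with 6 of 7 higher, and that of the others was -0.03, with 13 higher.

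Ndufs1, the largest core subunit, had 20.4 FPKM in WT against 32.3 in Dspp+/- and 27.7 in Dspp-/-, which was 1.59 times WT in Dspp+/- (95% Clopper-Pearson interval 1.52 to 1.65) and 1.36 times WT in Dspp-/- (1.3 to 1.42). Such intervals come from the recovered fragments and cover counting error only. Ndufv1, which binds NADH, was the 1 core gene lower in Dspp-/- than in WT, with 57.3, 78.1 and 52.7 FPKM. The core genes Ndufs3, Ndufs7, Ndufs8 and Ndufv2 had log2 ratios of 0.45 to 0.57 in Dspp+/- and of 0.06 to 0.45 in Dspp-/-.

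Among accessory subunits, Ndufa10 had the highest ratio in Dspp+/-, with 32.4 FPKM in WT against 54.4 in Dspp+/- and 42.3 in Dspp-/-, a fold of 1.68 (1.6 to 1.77) in Dspp+/-. Ndufs4, an accessory subunit needed for a stable complex, had the highest in Dspp-/-, with 19.2, 27.5 and 26.9 FPKM. Some small accessory subunits were lower in Dspp-/- than in both other libraries. Ndufb3, on chromosome 1 from 58625543 to 58635123 as the table gives it, had 41.6 FPKM in WT against 54.6 in Dspp+/- and 24.5 in Dspp-/-. By log2 ratio of FPKM + 1 it was the member that differed most between the mutants, and by fragments it was 2.23-fold (1.98 to 2.50) higher in Dspp+/-. Ndufa13 (also known as GRIM-19), the lowest in Dspp-/-, had 63.0, 57.9 and 36.3 FPKM, 0.576 times WT (0.531 to 0.623) in Dspp-/-. Other genes hold 24.0% of its 100-base sequences and 30% of its exon length lies over a gene on the other strand, and the library kit did not keep strand, so that its reads cannot be assigned with certainty. The lowest ratio in Dspp+/- was that of the gene copy Ndufb4c, with 12, 4 and 10 fragments, which has no 100-base sequence of its own, so that its level is uncertain.

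All 4 genes of complex II, which is also an enzyme of the tricarboxylic acid cycle, were higher in Dspp+/- than in WT, with a median log2 ratio of 0.47, and 2 were higher in Dspp-/-, with a median of 0.04. Sdha, the flavoprotein that oxidises succinate, had 92.2 FPKM in WT against 131 in Dspp+/- and 98.4 in Dspp-/-. Sdhb, the iron-sulfur subunit, had 87.0, 137 and 113 FPKM, a fold of 1.58 (1.52 to 1.64) in Dspp+/- and 1.29 (1.24 to 1.35) in Dspp-/-. In Dspp-/- the membrane anchors were near WT, Sdhc with 55.4, 74.6 and 54.9 FPKM and Sdhd with 95.4, 130.0 and 94.9. Sdhb thus had the highest ratio of the complex in both mutant libraries.

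Of the 8 genes of complex III, 7 were higher in Dspp+/- than in WT (median 0.40) and 6 in Dspp-/- (median 0.19). Uqcrfs1, the Rieske iron-sulfur protein and the most abundant gene of complex III by mean, had 172 FPKM in WT against 261 in Dspp+/- and 199 in Dspp-/-, a fold of 1.52 (1.47 to 1.57) in Dspp+/-. The core proteins followed the same order, Uqcrc1 with 79.1, 114 and 84.7 FPKM and Uqcrc2 with 73.7, 108 and 87.7. Other genes hold 15.5% of the 100-base sequences of Uqcrc2, and 19.7% of its exon length lies over a gene on the other strand. Uqcrb, a small subunit near the ubiquinone site, had the highest ratio in Dspp-/-, with 53.3, 71.8 and 65.7 FPKM. Uqcr11, the smallest subunit, was the exception, with 74.8, 69.4 and 44.3 FPKM, 0.593 times WT (0.535 to 0.656) in Dspp-/-.

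In complex V, all 17 members were higher in Dspp+/- than in WT, with log2 ratios from 0.17 to 0.61 and a median of 0.38. In Dspp-/- 11 of the 17 were higher, with ratios from -0.39 to 0.59 and a median of 0.18. Atp5a1 and Atp5b, the alpha and beta subunits that form the catalytic head, had the highest levels of all members in WT. Atp5a1 had 353 FPKM in WT against 540 in Dspp+/- and 413 in Dspp-/-, a fold of 1.53 (1.5 to 1.55) and 1.17 (1.15 to 1.19). Atp5b had 296 FPKM in WT against 427 in Dspp+/- and 320 in Dspp-/-. Atp5k, the e subunit of the membrane part, had the highest ratio of complex V in Dspp-/-, with 31.4, 41.0 and 47.6 FPKM. Atp5o, the subunit that ties the head to the peripheral stalk, was the lowest there, with 53.0, 66.3 and 40.1 FPKM, but 47.9% of its exon length is shared with another gene.

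The c-ring, which turns as protons pass, is built from 1 mature protein encoded by 3 genes. Atp5g3 had 101 FPKM in WT against 142 in Dspp+/- and 114 in Dspp-/-, Atp5g2 had 60.2, 67.9 and 53.4, and Atp5g1 had 32.8, 46.4 and 30.6. Atp5g3 was the most abundant of them in every library. The ratio of Atp5g1 to Atp5g3 was 0.326 (0.311 to 0.341) in WT, 0.326 (0.315 to 0.338) in Dspp+/- and 0.268 (0.257 to 0.280) in Dspp-/-, and that of Atp5g2 to Atp5g3 was 0.598, 0.478 and 0.467. Atp5g2, which had the lowest ratio of complex V in Dspp+/-, has 34.7% of its 100-base sequences in common with other genes.

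Complex IV was the least uniform. Of 19 members compared, 15 were higher in Dspp+/- than in WT (median 0.27) and 10 in Dspp-/- (median 0.06), with ratios from -0.93 to 0.91 in the first comparison and from -1.12 to 1.3 in the second. Its extremes were tissue-restricted isoforms, their partners and 1 gene copy. Cox6c2, the copy, had 12 fragments in WT against 31 in Dspp+/- and 40 in Dspp-/-, a fold of 2.21 (1.11 to 4.73) and 3.03 (1.56 to 6.35), and 34.8% of its 100-base sequences occur in other genes too. Without the muscle and other restricted isoforms, 11 of the remaining 13 members were higher in Dspp+/-, with a median of 0.27, and 8 in Dspp-/-, with a median of 0.07. Among them Cox4i1, the widespread form of subunit 4, had 208 FPKM in WT against 251 in Dspp+/- and 200.3 in Dspp-/-.

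The muscle isoforms did not move as 1 group. Cox6a2, on chromosome 7 from 127804607 to 127805559 in the table, was the most abundant member of complex IV and had 292 FPKM in WT against 467 in Dspp+/- and 258 in Dspp-/-. It was at 1.6 times WT (1.54 to 1.66) in Dspp+/- and at 0.885 times WT (0.847 to 0.925) in Dspp-/-. A gene on the other strand lies over 10.3% of its exon length. Cox7a1 had 76.5, 86.8 and 66.8 FPKM, so it too was highest in Dspp+/- and lowest in Dspp-/-. Cox8b, on chromosome 7 from 140478858 to 140480359, had 157, 195 and 213 FPKM and was above WT in both mutant libraries, by 1.25 (1.16 to 1.35) and 1.36 times (1.26 to 1.47). The median log2 ratio of the 3 was 0.32 in Dspp+/- and -0.18 in Dspp-/-. The second value was -0.058 with scaling that left out mitochondrial, hemoglobin, immunoglobulin and muscle genes, and -0.024 when centred by GC content.

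The widespread partners were mostly lower in the mutant libraries. Cox6a1 had 90.4 FPKM in WT against 60.3 in Dspp+/- and 65.5 in Dspp-/-, 0.667 (0.613 to 0.725) and 0.725 times WT (0.667 to 0.787). Cox8a, on chromosome 19 from 7192518 to 7194981, had 78.6, 49.5 and 35.6 FPKM, 0.630 (0.572 to 0.694) and 0.453 times WT (0.406 to 0.506), the lowest ratio of all members in Dspp-/-. Cox7a2 was the exception, with 81.9, 105 and 92.4 FPKM. The median log2 ratio of the 3 partners was -0.58 in Dspp+/- and -0.46 in Dspp-/-.

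Ratios of isoforms within 1 library do not depend on its scaling, but they were not adjusted for GC content, with which ratios between libraries moved. The longest transcript had 52.8% GC in Cox6a2 and 62.7% in Cox6a1. For the other pairs it had 55.8% in Cox8b and 58.5% in Cox8a, and 55.3% in Cox7a1 and 51.9% in Cox7a2. The part of GC content in these isoform ratios was not tested. The ratio of Cox6a2 to Cox6a1 was 3.23 in WT (3.03 to 3.44), 7.75 in Dspp+/- (7.25 to 8.29) and 3.94 in Dspp-/- (3.68 to 4.23). That of Cox8b to Cox8a was 1.99 in WT (1.83 to 2.17), 3.94 in Dspp+/- (3.61 to 4.31) and 5.97 in Dspp-/- (5.40 to 6.62). Both ratios were higher in the mutant libraries, but with Dspp+/- highest for subunit 6a and Dspp-/- highest for subunit 8. The ratio of Cox7a1 to Cox7a2 went the other way, with 0.934 in WT (0.857 to 1.02), 0.830 in Dspp+/- (0.771 to 0.892) and 0.723 in Dspp-/- (0.665 to 0.786).

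**Figure D3:**
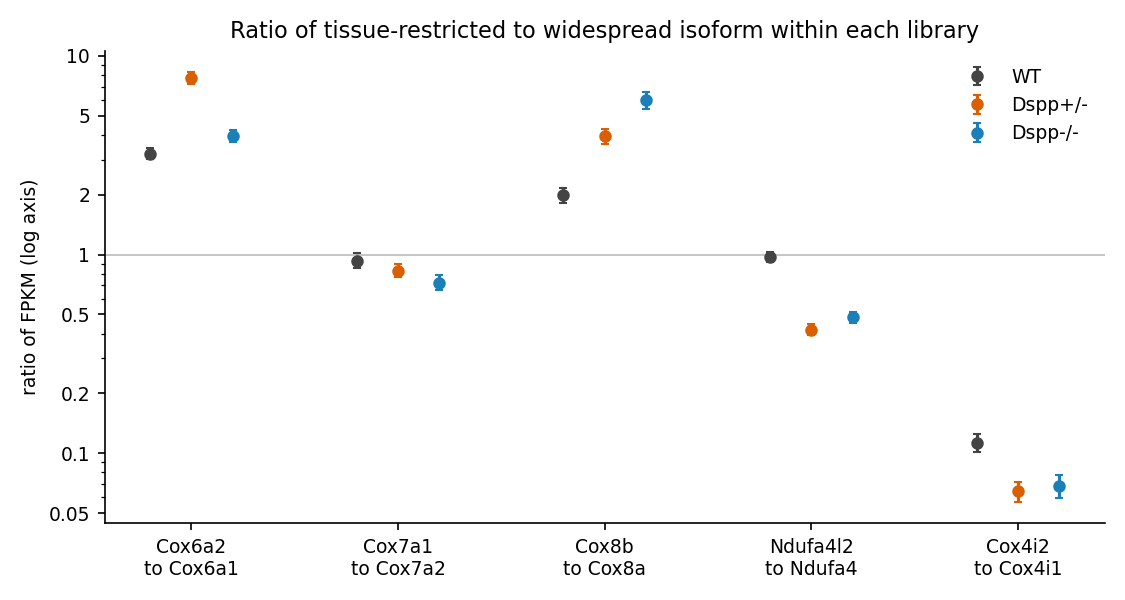
Ratio of FPKM of a tissue-restricted isoform to its widespread partner within each library, on a log axis, with 95% intervals for counting error. Cox6a2 to Cox6a1 is highest in Dspp+/- at 7.75, Cox8b to Cox8a is highest in Dspp-/- at 5.97, and Ndufa4l2 to Ndufa4 and Cox4i2 to Cox4i1 are lower in both mutant libraries than in WT.

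Of the other restricted isoforms compared, Ndufa4l2 and Cox4i2 were lower in the mutant libraries and Cox6b2 was not. Ndufa4l2, a paralog of the complex IV subunit Ndufa4 that is known for its induction by hypoxia, had 99.3 FPKM in WT against 51.7 in Dspp+/- and 55.8 in Dspp-/-, 0.521 (0.486 to 0.558) and 0.561 times WT (0.524 to 0.601). Ndufa4 itself had 102, 124 and 116 FPKM, so that the ratio of Ndufa4l2 to Ndufa4 was 0.972 in WT but 0.419 in Dspp+/- and 0.482 in Dspp-/-. The longest transcript of Ndufa4l2 had 60.7% GC and that of Ndufa4 40.3%, and the part of this in their ratio was not tested. Cox4i2, the isoform of lung and of oxygen-sensing cells, had 23.5, 16.1 and 13.7 FPKM, and its ratio to Cox4i1 was 0.113, 0.0642 and 0.0683. Cell type lists with medians below 0 in both mutant libraries were those of chondrocyte, osteoblast and osteoclast markers. Their median log2 ratios were -2.87, -1.6 and -1.25 in Dspp+/- and -1.04, -0.84 and -0.58 in Dspp-/-. By median these lists were lower in Dspp+/- than in Dspp-/-, whereas Cox4i2 was lowest in Dspp-/- and Ndufa4l2 was alike in the mutants. Whether cells of these types held Ndufa4l2 and Cox4i2 was not tested. Cox6b2, a testis isoform, had 19, 37 and 37 fragments, and its interval included 1 in both comparisons.

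The members were set beside other genes of the mitochondrion. The tricarboxylic acid cycle list, which feeds NADH and succinate to the chain, had all 16 genes higher in Dspp+/- (median 0.56) and 15 in Dspp-/- (median 0.30). Mdh2 (malate dehydrogenase) had 100.1 FPKM in WT against 150.0 in Dspp+/- and 115 in Dspp-/-, and Ogdh (oxoglutarate dehydrogenase) had 78.6, 130.3 and 98.5. Of 10 compared respiratory genes with names outside the rule, such as cytochrome c1 (Cyc1) and the electron transfer flavoproteins, 9 were higher in Dspp+/- (median 0.41) and 5 in Dspp-/- (median 0.11). The most abundant of these, the muscle ADP/ATP carrier Slc25a4, had 529, 631 and 343 FPKM. Assembly factors, which build the complexes but are not part of them, had 31 of 41 higher in Dspp+/- (median 0.16) and 23 in Dspp-/- (median 0.06).

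Of 14 regulators of mitochondrial biogenesis, 12 were higher in Dspp+/- (median 0.23) and 12 in Dspp-/- (median 0.16). Ppargc1a, the gene of the coactivator PGC-1alpha, had 2.62 FPKM in WT against 5.74 in Dspp+/- and 4.75 in Dspp-/-, and Perm1, a muscle regulator of oxidative genes, had 35.7, 63.5 and 46.0. Esrra, the gene of the nuclear receptor ERRalpha that binds the ERR site, had 17.6, 21.5 and 11.5 FPKM. Nrf1 had 2.27, 2.87 and 2.50 FPKM. All 4 were highest in Dspp+/-, and Esrra was the 1 of them that was lower in Dspp-/- than in WT. The list as a whole was less uniform. Of the 14 regulators, 9 were higher and 5 lower in Dspp+/- than in Dspp-/-, with a median log2 ratio of 0.09. Gabpa, Gabpb1, Ppargc1b and Tfam were highest in Dspp-/-, and Pprc1 was highest in WT.

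Of the 13 mitochondrially encoded genes, 13 were higher than in WT in Dspp+/- (median 0.85) and 11 in Dspp-/- (median 0.74). The summed mitochondrially encoded FPKM of complex I was 22.3 times that of its nuclear members in WT, 31.2 times in Dspp+/- and 40.3 times in Dspp-/-. The same ratio was 17.6, 21.5 and 27.7 for complex III and 12.7, 18.4 and 21.3 for complex IV, and 0.231, 0.325 and 0.307 for complex V. It was lowest in WT for each of these 4 complexes, and highest in Dspp-/- for all but complex V, where it was highest in Dspp+/-. The 2 mitochondrially encoded genes of complex V summed to 355 FPKM in WT, beside 22638 for the 3 of complex IV. Shared sequence and overlap were not checked for mitochondrially encoded genes, so the low ratio of complex V is uncertain. Libraries were selected for poly(A), and whether the share of mitochondrial RNA came from that selection was not tested.

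**Figure D4:**
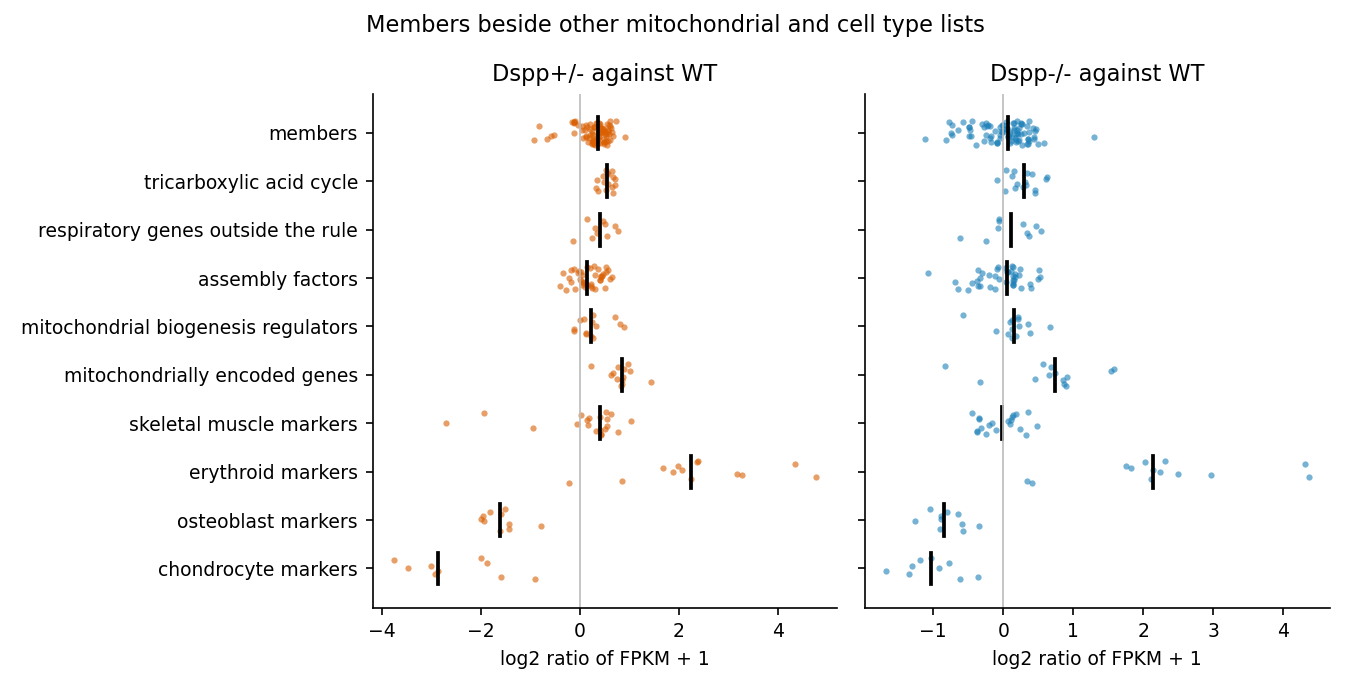
Log2 ratio of FPKM + 1 against WT for the members and for 9 other lists, Dspp+/- on the left and Dspp-/- on the right, with 1 point per gene and a bar at the median of each list (the horizontal scales differ). The medians of the members and of the muscle markers are 0.36 and 0.42 in Dspp+/- but 0.07 and -0.02 in Dspp-/-, while erythroid markers lie to the right and chondrocyte and osteoblast markers to the left in both.

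Skeletal muscle markers had medians, and ratios of their sum to that of WT, close to those of the members. Of 20 compared, 16 were higher in Dspp+/- than in WT (median 0.42) and 10 in Dspp-/- (median -0.02), and their sum was 1.33 and 1.06 times that of WT, beside 1.29 and 1.03 times for the members. Myoglobin (Mb), the oxygen store of muscle, had 1204 FPKM in WT against 1763 in Dspp+/- and 944 in Dspp-/-. The fibre type genes did not move together. Myh2, the myosin of oxidative fast fibres, had 342, 706 and 359 FPKM, while Myh4, the myosin of glycolytic fast fibres, had 124, 18.2 and 111, and Actn3, an actinin of fast fibres, had 122, 31.0 and 89.5. The Dspp+/- library thus stood apart from both others in Myh2, Myh4 and Actn3. They are the extremes of the list, picked with their values known. Of the 20 markers, Myh2 was the 1 at least 2-fold higher in Dspp+/- than in WT. Myh4 and Actn3 were the 2 at least 2-fold lower. The part that muscle in the dissected tissue had in the members' levels was not tested.

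Other cell type lists moved differently from the members. The median log2 ratio of erythroid markers was 2.26 in Dspp+/- against WT and 2.15 in Dspp-/- against WT, that of neutrophil markers 2.0 and 2.58, and that of cell cycle genes 1.37 and 1.13, all far above the members' medians in both comparisons. Osteoclast markers had medians of -1.25 and -0.58. Adipocyte markers (8 compared) had -0.09 and 0.96, and brown adipocyte markers (4 compared) 0.15 and 0.98. Ucp1, the uncoupling protein that defines brown fat, had 0.423 FPKM in WT against 0.104 in Dspp+/- and 4.92 in Dspp-/-. Of the muscle isoforms, Cox8b was highest in Dspp-/-, whereas Cox6a2 and Cox7a1 were lowest there. The part of fat cells in these levels was not tested.

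Base composition also moved with the ratios. Across 12981 genes, Spearman's correlation of the log2 ratio with the GC content of the longest transcript was -0.17 in Dspp+/- against WT and -0.49 in Dspp-/- against WT, and across the 86 members it was -0.26 and -0.31. Genes are not independent replicates, and these values describe single pairs of libraries. Divided by GC content into 3 groups of like size, the members had medians of 0.42, 0.26 and 0.32 in Dspp+/-, from the lowest to the highest GC, beside 0.12, 0.04 and -0.03 for all genes in the same ranges. In Dspp-/- the members had 0.21, 0.01 and -0.02, beside 0.17, -0.04 and -0.25. The members were therefore above other genes of like GC content in every group in Dspp+/-, and by the widest margin in the GC-rich group in Dspp-/-. By length of the longest transcript, all 29 members of the longest group were higher in Dspp+/- (median 0.49), beside 22 of 29 in the shortest group (median 0.27). All genes in the same length ranges had medians of 0.06 and 0.07. In Dspp-/- the shortest group had a median of -0.17, with 13 of 29 higher, and the longest one of 0.11, with 19 higher. For all genes in these ranges the medians were 0.07 and 0.01.

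**Figure D5:**
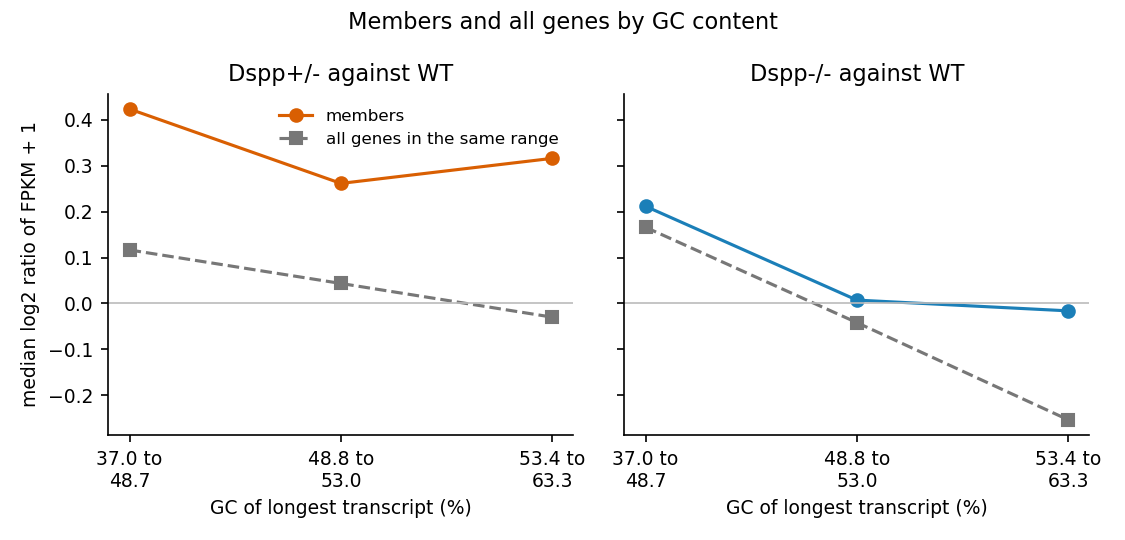
Median log2 ratio of FPKM + 1 against WT in 3 groups of the members by GC content of the longest transcript (solid line), beside all genes in the same GC range (dashed line), Dspp+/- on the left and Dspp-/- on the right. In Dspp+/- the members lie above the other genes in each group, and in Dspp-/- both lines fall with GC content, that of all genes to -0.25.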

How the data were processed

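Poly(A)-selected RNA of mandibular condyles was sequenced in pairs of 150 bases, 1 library per genotype. The authors deposited a single table of 26970 genes whose unit is not named, and its values were read as FPKM. The submitters' notes name FastQC 0.11.5, HISAT2 2.1.0, StringTie 1.3.3b and DESeq 1.28.0, and give hg38, a human build, although the table holds mouse genes. Only 574 genes have the same position in GENCODE M21 (GRCm38), so gene positions are as in the table, and its build is not given in the sources used here. Triplicates are mentioned in the labels, but the table has 1 column per genotype. Dspp was not analysed here, so it could not check the labels. Values of some single genes that the naming rule covers are not reported here.

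FPKM times merged exon length (GENCODE M21) was a whole number of fragments in all 3 libraries for 26177 of 26652 genes, among them all 88 members. The tolerance was 0.05 plus an allowance for rounding that grew with gene length and fragment number. It was wide for the most abundant members, so this was little of a check for them. Recovery was tested on simulated data (Dspp+/- against WT, 26177 genes), where 100% of fragment numbers came back. In them 100% of 200 planted changes passed 2-fold, as did 5 of 12146 unchanged genes. The planted changes were larger than 2-fold, lay in genes away from the floor and had counting noise only. Their passing was thus set by the design and says nothing about smaller changes or the spread between mice. Genes that averaged 1 FPKM or more were compared as log2 ratios of FPKM + 1, which understates changes of low genes. Intervals on folds and isoform ratios of FPKM are 95% Clopper-Pearson intervals from fragments. Lists are described by counts and medians.

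Named genes are the restricted isoforms and their partners, per complex the most abundant member and those with extreme ratios against WT, core and catalytic subunits, the c-ring, members past 2-fold or not compared, and for other lists the 3 highest in WT where a list is described in full, and genes whose result is given. Some genes named beside them, such as Myh4, Ucp1 or Esrra, belong to the lists and were picked with their values known. The members and lists were chosen with earlier results of these data known. Alternatives were pseudocounts of 0.1 and 5, other filters, median-ratio and upper-quartile scaling, scaling without mitochondrial or muscle genes, a 1.5-fold threshold and a minimum length. Alternatives chosen after seeing the data were centring by GC content and leaving out members that share sequence or exons. Scripts ran on Python 3.11.15 with pandas 2.3.3, scipy 1.17.1, matplotlib 3.10.9 and numpy 2.4.6.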

Additional observations from a re-analysis of the deposited data

How the results depend on the processing

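The direction of the members' median log2 ratio was kept in each comparison under the 12 alternatives run, with ranges of 0.29 to 0.44 in Dspp+/- against WT, 0.04 to 0.18 in Dspp-/- against WT and 0.23 to 0.33 in Dspp+/- against Dspp-/-. The value of 0.18 came from scaling without mitochondrial, hemoglobin, immunoglobulin and muscle genes, which shifted the median of all genes to 0.13 in Dspp+/- and 0.10 in Dspp-/- against WT. Under the same scaling the muscle isoforms in Dspp-/- against WT had -0.058. Centring by GC content, chosen after seeing the data, gave the muscle isoforms -0.024 in Dspp-/- against WT and 0.18 in Dspp+/- against Dspp-/-, and the members 0.32, 0.08 and 0.23 in the 3 comparisons. The number of members past the threshold depended on the setting. At 1.5-fold in place of 2-fold it was 10 higher and 3 lower in Dspp+/- against WT, 2 and 7 in Dspp-/- against WT, and 10 and 1 in Dspp+/- against Dspp-/-. With a pseudocount of 0.1 it was 1 higher and 1 lower in Dspp+/- against WT, and 2 and 1 between the mutants, and with a pseudocount of 5 it was 0 higher in Dspp-/- against WT. With median-ratio scaling 1 member was lower in Dspp+/- against WT. As a share of genes not mitochondrially encoded, the members held 2.63% (WT), 3.45% (Dspp+/-) and 2.85% (Dspp-/-). No other alternative moved a median by more than the counting interval of a typical member. With 1 library per genotype no library could be left out, and no paired analysis was possible because each genotype has 1 library. Depth limits the gene copies with under 50 fragments most.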
